A study of Mus musculus with 4 samples.

Results

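The step from day 5 to day 6 of gastruloid culture was examined across all genes, with the summed unique molecular identifiers (UMIs, each standing for 1 captured RNA molecule) of each gene in the day 6 library set against those in the day 5 library. Cells were included if they held 2000 or more UMIs and had under 20% of their UMIs in mitochondrially encoded (mt-) genes. This rule kept 7408 of 7794 cells at day 5 and 5850 of 6628 at day 6, together 13258 of 14422 cells of these days and of 31330 cells in the whole series. Gastruloids are aggregates of mouse embryonic stem cells that form the tissues of the early embryo without a uterus. All libraries came from the wild type Zx1 line, collected on days 4, 5, 6 and 11, with 1 library a day prepared from pooled gastruloids. The aggregates received a pulse of the WNT pathway activator CHIR99021 from day 2 to day 3 and were kept from day 4 in bFGF, VEGF and ascorbic acid, so that both days compared here lay in the same medium. RNA was captured at the 3′ end (Chromium Single Cell 3′ kit v3.1), and a gene's UMIs are therefore not scaled by its length.

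With 1 library a day, the day and the library cannot be told apart, no test was possible, and there was no replicate error to set against a difference. All values are therefore given for both days, as CPM (the gene's UMIs summed over cells and scaled to a library total of 1000000 UMIs; days 5 and 6 each by their own total), and intervals are exact 95% intervals that cover counting error only. The kept cells held 236125033 UMIs at day 5 and 180968688 at day 6, with medians of 28400.5 and 25581 UMIs and 5002 and 4986.5 genes a cell. The median mt- share was 2.69% at day 5 and 2.84% at day 6, and 19 barcodes occurred in both libraries. A sum over a library does not tell fewer cells of a type from less RNA per cell.

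In the mouse embryo, this stage of culture is used to model the time when mesoderm leaves the primitive streak and takes on its fates. Cardiopharyngeal mesoderm is the progenitor field that gives rise to part of the heart and to muscles of the head and neck, and is marked by factors such as *Isl1*, *Tbx1*, *Tcf21* and *Lhx2*. The first cardiomyocytes switch on the sarcomere, the contractile unit built from myosin, actin, troponin and titin, under factors such as *Nkx2-5*, *Mef2c*, *Gata4* and *Tbx5*. Endothelium, somites, gut endoderm and neural tissue form over the same period, and the pluripotency programme of the starting cells is shut down.

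Of 32286 features, 9703 genes reached a mean of 5 CPM over both days and are called the tested genes here, although no statistical test was made. Among them 1190 were at least 2-fold higher at day 6, or 12.3%, and 435 were at least 2-fold lower, or 4.48%. The counting interval of the ratio lay wholly past 2-fold for 1072 of the higher and 380 of the lower genes. Past 8-fold there were 159 higher and 38 lower genes, and past 16-fold 95 and 16. The genes at the edge of the limit were *Dpp8* with a ratio of 2.0014 just inside and *Atf6b* with 2.0000 to 4 decimals just outside, and *Ogdhl* with 0.5000 just inside and *Ccdc160* with 0.5002 just outside on the lower side. Side by side, 687 of 9251 genes were higher (7.43%) and 427 lower (4.62%) at day 5 against day 4, and 990 of 10244 were higher (9.66%) and 394 lower (3.85%) at day 11 against day 6, an interval of 5 days in place of 1. Neighbouring intervals share a library and were not compared further.

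The median log2 ratio over the tested genes was 0.19, so that a typical gene stood 1.14-fold higher at day 6. Genes of cytoplasmic ribosomal proteins took 33.3% of all UMIs at day 5 and 27.6% at day 6. Under other scalings the median came to 0.08 (trimmed mean of M values, TMM) and 0.06 (size factors of DESeq2), and the higher genes made up 64.2% and 63.1% of those past 2-fold, in place of 73.2%. All list medians below should be read against the shift of 0.19 rather than against 0. Counts in each list should be read against the 12.3% higher and 4.48% lower of all tested genes. In any list, genes that reach the floor through day 6 alone had to be higher, and those through day 5 alone lower.

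**Figure D1:**
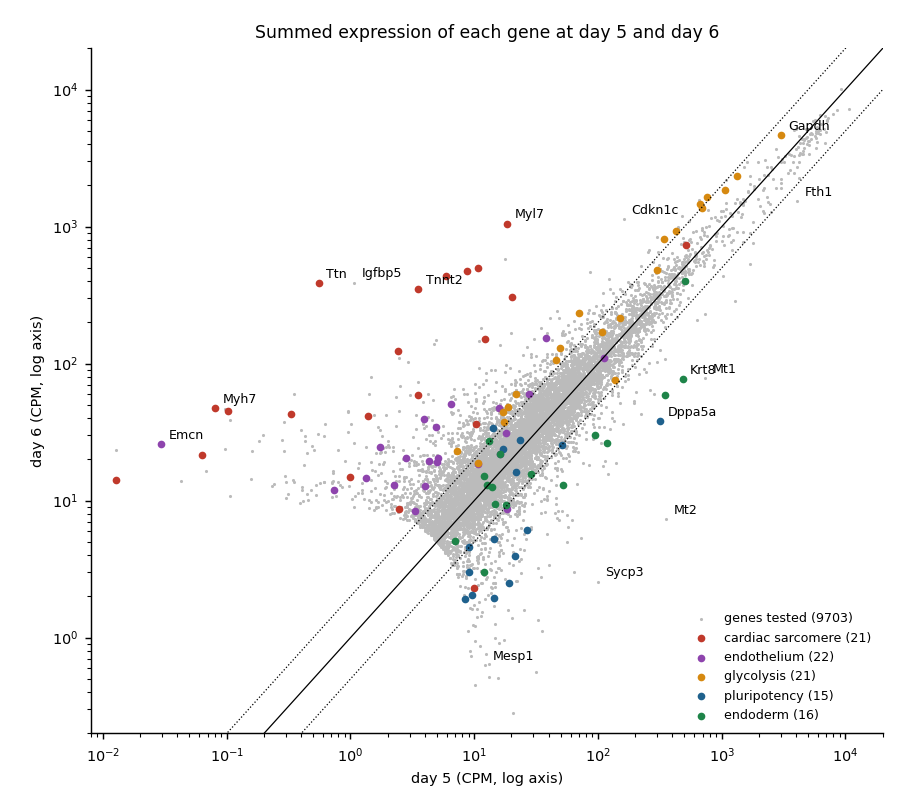
Each point is a tested gene, with its summed expression at day 5 (x axis, CPM, log scale) and day 6 (y axis, CPM, log scale), 1 library a day; the solid line marks equal values, the dotted lines 2-fold, and colours mark genes of 5 lists. The sarcomere genes (red) lie far above the lines, as *Ttn* at 0.559 and 385 CPM, while *Mt2*, *Sycp3* and *Dppa5a* lie below them.

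Among genes with a mean of 20 CPM or more, most of the 15 highest ratios belonged to the contractile apparatus of the heart or to smooth muscle actin, with *Sfrp5*, *Igfbp5*, *Col3a1*, *Slc8a1* and *2610528A11Rik* the exceptions. Scarcer genes such as *Hba-x* and *Emcn*, given below, had higher ratios still on 3 and 7 UMIs at day 5. *Ttn*, which encodes the giant sarcomere spring titin, stood at 0.559 CPM at day 5 (0.468 to 0.663) and 385 CPM at day 6 (382 to 388), a ratio of 689 (581 to 824). *Myh7* and *Myh6*, the heavy chains of the cardiac myosin motor, stood at 0.0805 and 0.102 CPM at day 5 and at 47.4 and 45.0 CPM at day 6. These day 5 levels rest on 19 and 24 UMIs, and the intervals of the ratios run from 377 to 979 for *Myh7* and from 297 to 691 for *Myh6*. The myosin light chain gene *Myl7*, which marks early cardiomyocytes and later the atria, was the only one of the 15 genes with the highest ratios that was also among the 10 with the largest gain in CPM, from 18.6 (18.03 to 19.13) to 1052 (1047 to 1057). It had stood at 49.9 CPM at day 4 and reached 4600 CPM at day 11. *Tnnt2*, the cardiac troponin T gene, went from 3.54 to 349 CPM, *Actc1*, the cardiac actin gene, from 10.7 to 497 CPM, and *Acta2*, the smooth muscle actin gene that early heart muscle also uses, from 8.81 to 474 CPM.

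Of the 26 genes of the sarcomere list, 21 were tested, 19 of these were past 2-fold higher (90.5%, against 12.3% of all tested genes) and 1 was lower. The lower gene was *Acta1*, the skeletal muscle actin gene, at 9.87 and 2.29 CPM, and *Tpm1*, at 519 and 736 CPM, did not reach 2-fold. Genes that reach the floor through day 6 alone had to be higher, so the sum over the whole list is also given, which came to 633 CPM at day 5 (630 to 636) and 4870 CPM at day 6 (4860 to 4880). Genes of the later working heart stood lower at day 6 than at day 11. *Myl2*, the ventricular light chain gene, stood at 42.9 CPM against 538 CPM at day 11. *Tnni3*, the adult troponin I gene, stood at 41.6 against 636 CPM, and *Csrp3*, a Z-disc gene, at 21.5 against 471 CPM. *Myl2* had already risen from 0.330 CPM at day 5, a ratio of 129.9 (103.9 to 164.5). *Myh6* and *Myh7* stood near it at day 6, at 45.0 and 47.4 CPM. Both were also higher at day 11, at 678.5 and 300.1 CPM, so these levels do not set *Myl2* apart from them. *Myoz2*, *Tcap*, *Xirp1*, *Actn2* and *Smpx* stayed below the floor, with *Actn2* at 1.40 CPM at day 5 and 7.79 CPM at day 6. *Mybpc3*, with 3 UMIs at day 5, had a ratio of 1113 (380 to 5398).

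**Figure D2:**
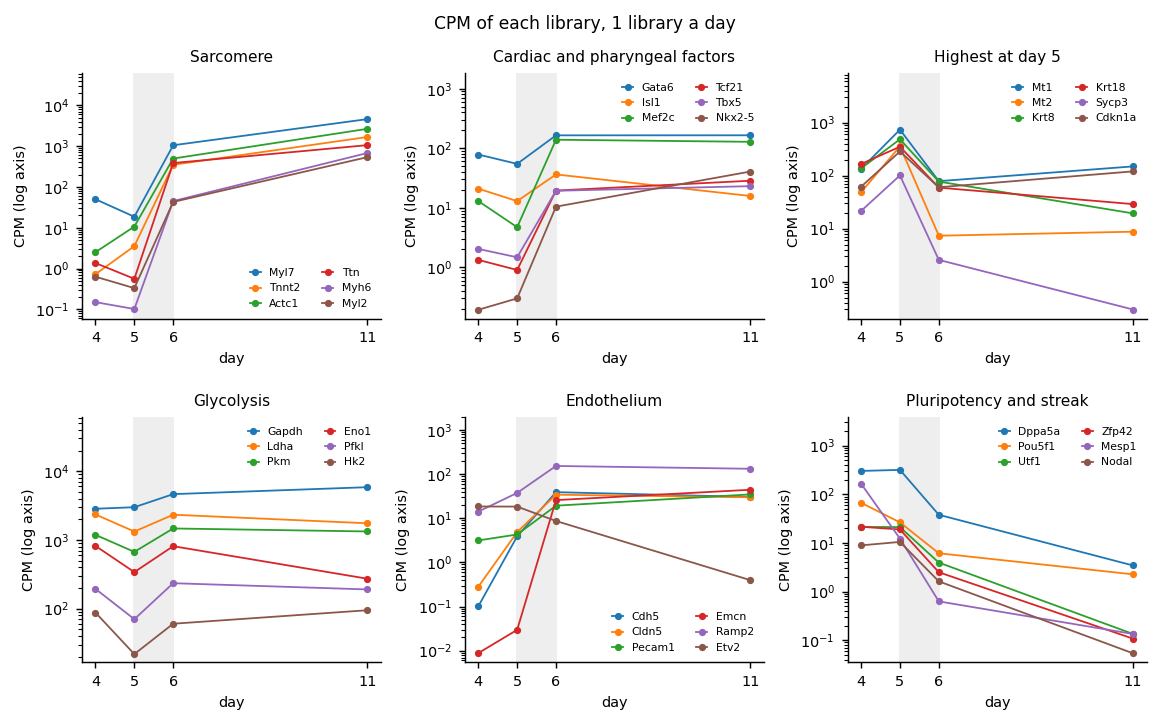
Summed expression (CPM, log axis) of named genes in each library over culture days 4, 5, 6 and 11, with 1 point a library and the step from day 5 to day 6 shaded. Sarcomere and endothelial genes other than *Etv2* climb across the shaded step, glycolytic genes other than *Gapdh* dip at day 5, and *Mt1*, *Mt2*, *Krt8*, *Krt18*, *Sycp3* and *Cdkn1a* peak at day 5.

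The sarcomere signal sat in few cells. Cells with 1% or more of their UMIs in the sarcomere list numbered 0 of 7408 at day 5, which allows a share of up to 0.0405% as 3 cells of the total and up to 0.0498% as the exact binomial limit, and 585 of 5850 at day 6, or 10% (9.24 to 10.8%, exact binomial), and these cells held 81.05% of the list's UMIs at day 6. Such cells are a range and not a type, since 126 cells lay between 0.8% and 1.2%. Their median depth was 24062 UMIs, against 25733 in the other day 6 cells. Their median share in the smooth muscle list was 0.526% against 0.0419% in the other cells. That list shares *Acta2* with the sarcomere list by which the cells were picked, so a higher share was partly given by the choice. In the endothelial list the median shares were 0.00983% against 0.0147%, and in the neural list 0.0151% against 0.0341%. The median cell had 0.0529% of its UMIs in the list at day 5 and 0.0610% at day 6, while the 99th percentile went from 0.227% to 8.65%. After thinning of each cell to 5000 UMIs, a depth that 164 day 5 cells and 115 day 6 cells did not reach, the 10% of day 6 cells richest in the gene held 97.03% of the *Actc1* UMIs, 90.9% for *Myl7*, 91.7% for *Tnnt2* and 86.8% for *Ttn*. *Igfbp5*, which encodes a binding protein of insulin-like growth factors and went from 1.08 to 389 CPM, was spread more widely, with 45.3% in the richest 10% of cells at a mean of 2.28 UMIs a cell against 2.44 for *Actc1*. In the day 6 cells below 1%, the list still summed to 1024 CPM against 633 CPM in all day 5 cells, with *Ttn* at 88.6 CPM and *Myl7* at 130 CPM.

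The promoters of *Myl7* and *Actc1* are shown because both genes are among the 15 with the highest ratios and both hold a CArG box, the element bound by serum response factor (*Srf*), directly before the start. The 150 bases before the RefSeq start are given 5′ to 3′ on the gene's strand (GRCm38.p6, both minus strand), with the CArG box in capitals. The *Myl7* stretch is chr11:5898783-5898932, with the box 61 to 52 bases before the start, and the *Actc1* stretch is chr2:114052876-114053025, with the box 47 to 38 bases before it.
Myl7: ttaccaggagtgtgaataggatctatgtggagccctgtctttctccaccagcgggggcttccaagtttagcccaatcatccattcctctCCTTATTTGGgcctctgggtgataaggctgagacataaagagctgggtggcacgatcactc
Actc1: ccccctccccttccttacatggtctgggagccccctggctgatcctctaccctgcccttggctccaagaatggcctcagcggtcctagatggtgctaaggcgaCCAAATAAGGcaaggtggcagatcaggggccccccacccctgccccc

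A CArG box occurred on either strand within 250 bases before the start in 6 of 20 sarcomere genes with a RefSeq promoter, or 30%, against 1.40% of 27025 promoters and 1.19% of the tested genes. In the smooth muscle list it occurred in 2 of 8. Of the other motifs searched, the MEF2 site occurred in 2 of the 20 sarcomere promoters (3.01% of all promoters, 1.37% of tested genes), AGATAA in 4 (10.3% and 5.09%), the E-box CAGCTG in 5 (12.8% and 10.7%) and TATAAA in 1 (13% and 5.76%). The hypoxia and metal response elements described below occurred in 2 (16.6% and 23.4%) and 4 (21.3% and 31.5%). *Srf* itself stood at 6.85 CPM at day 5 and 7.41 CPM at day 6. These matches are letters in a window and were not read as sites in use. The same count over all higher or all lower genes was void, because only 75.1% and 77.7% of them had a promoter in the table.

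Genes of calcium handling and conduction were lower in level than the sarcomere genes and mostly below the floor. Of 27 listed, 10 were tested, of which 7 were higher and 1 was lower, and the list summed to 209 and 440 CPM. *Slc8a1*, the sodium-calcium exchanger, stood at 0.957 and 45.4 CPM, *Ryr2*, the calcium release channel, at 0.792 and 23.3 CPM, *Hcn4*, the pacemaker channel, at 0.851 and 12.6 CPM, and *Hspb7*, a small heat shock protein gene of muscle, at 0.0678 and 16.5 CPM. *Fabp3*, a fatty acid binding protein gene, was lower, at 58.9 and 26.7 CPM. The natriuretic peptide gene *Nppa*, at 0.182 and 0.331 CPM, and *Pln*, at 0.00424 and 3.21 CPM, did not reach the floor. Without the 585 sarcomere-rich cells the median log2 ratio was 0.92 in place of 2.46, but the floor was applied anew, so these medians cover different genes. *Hspb7*, at 0.0678 and 4.69 CPM there, *Ryr2*, at 0.792 and 7.80 CPM, and *Hcn4*, at 0.851 and 7.33 CPM, fell below the floor although still higher at day 6.

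The transcription factors of the heart were higher in smaller proportion. Of 24 listed factors 21 were tested, 14 were higher and 2 lower, and their sum was 533 and 959 CPM. *Mef2c* stood at 4.72 and 139 CPM, a ratio of 29.5 (27.8 to 31.3), *Gata5* at 2.47 and 45.1 CPM, *Tbx5* at 1.47 and 19.3 CPM, *Myocd*, the coactivator of serum response factor, at 0.233 and 12.9 CPM, and *Nkx2-5* at 0.301 and 10.5 CPM (9.98 to 10.9). The GATA factor *Gata6* stood at 54.6 and 165 CPM and *Gata4* at 11.1 and 33.8 CPM, both about 3-fold apart, and *Isl1* at 12.9 and 36.3 CPM. The lower factors were *Hand1*, which acts in lateral and extraembryonic mesoderm and the left ventricle, at 213 and 83.7 CPM, and the T-box repressor *Tbx3* at 46.1 and 9.51 CPM. The related *Hand2* was higher, at 59.3 and 136 CPM. Without the sarcomere-rich cells *Mef2c* still stood at 105 CPM at day 6 and *Gata6* at 149 CPM, while *Nkx2-5* stood at 3.49 CPM and *Myocd* at 5.02 CPM.

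Among the 22 genes of the cardiopharyngeal mesoderm list, 15 were tested, 12 were higher (80%, against 12.3% of all tested genes) and 0 lower. Genes that reach the floor through day 6 alone, as *Tcf21*, *Ebf1*, *Lhx2*, *Ebf3* and *Foxc2* did, had to be higher, so this share was partly set by the floor. The whole list summed to 90.4 CPM at day 5 and 434 CPM at day 6, a ratio of 4.80 (4.73 to 4.87). Apart from *Mef2c*, the furthest were *Tcf21*, a factor of pharyngeal and epicardial mesoderm, at 0.902 and 19.5 CPM (ratio 21.6, 18.8 to 24.9), and *Ebf1* at 1.34 and 24.6 CPM. *Lhx2* stood at 2.69 and 14.5 CPM and *Ebf3* at 1.61 and 8.98 CPM, both between 5-fold and 6-fold. *Foxc2* stood at 3.83 and 18.5 CPM. *Tbx1* went against the list, at 1.27 CPM at day 5 (1.13 to 1.42) and 0.928 CPM at day 6 (0.793 to 1.08), both below the floor. In the cells below the sarcomere limit the list ratio was 4.50. At day 4 the list had summed to 223 CPM.

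Markers of the primitive streak and nascent mesoderm diverged. Of 26 listed, 12 were tested, 3 were higher and 4 lower, and 14 stood below the floor. *Mesp1*, the factor of the earliest cardiac and head mesoderm, stood at 165 CPM at day 4, 12.3 CPM (11.9 to 12.7) at day 5 and 0.630 CPM (0.520 to 0.757) at day 6, a 19.5-fold lower level between the days compared. *Wnt3* stood at 15.9 and 0.917 CPM, *Nodal* at 10.5 and 1.63 CPM and *Lhx1* at 10.7 and 3.95 CPM. *T* (brachyury) was at 8.28 and 6.26 CPM, within 2-fold. The higher members were the receptor genes *Pdgfra*, at 3.85 and 52.5 CPM, and *Kdr*, at 27.5 and 59.8 CPM, and the ligand gene *Fgf17*, at 3.03 and 9.43 CPM.

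Paraxial mesoderm genes were higher in sum. Genes that reach the floor through day 6 alone, as *Meox1*, *Pax3*, *Tcf15* and *Hes7* did, had to be higher. The counts in this list were therefore partly set by the floor. Of 24 presomitic and somite genes 9 were tested, 8 were higher and 0 lower, and the list summed to 34.7 and 198 CPM, a ratio of 5.70 (5.57 to 5.84), with 159 CPM at day 4. *Meox1*, a homeobox gene of the somites, stood at 0.618 and 36.2 CPM (ratio 58.5, 49.7 to 69.4), *Pax3*, of the dermomyotome, at 0.712 and 13.5 CPM, *Tcf15* at 2.95 and 18.8 CPM and *Hes7*, of the segmentation clock, at 2.47 and 14.0 CPM. Genes of skeletal myogenesis stayed low: 5 of 21 were tested, 4 were higher and 1 lower. The myogenic factor gene *Myf5* had 9 UMIs at day 5 and 57 at day 6 (0.0381 and 0.315 CPM), and *Myod1* stood at 0.0381 and 0.0111 CPM. The higher members were *Pax3*, *Tcf21*, *Tnnt1* and *Des*, of which *Des* encodes the filament protein desmin of all muscle and stood at 49.5 and 101 CPM, and 76.6 CPM in day 6 cells below the sarcomere limit. *Mymx*, which encodes a fusion peptide of muscle, was at 10.1 and 0.453 CPM.

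**Figure D3:**
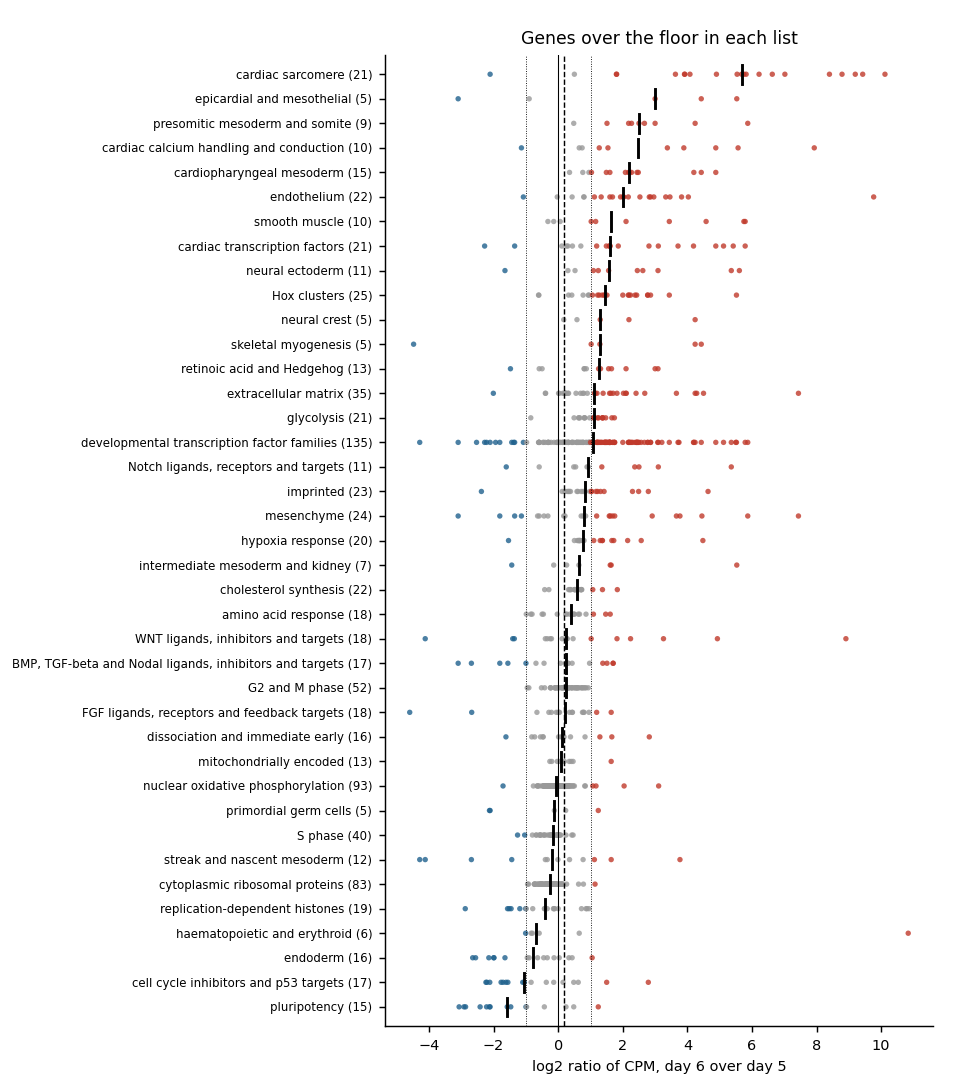
Log2 ratio of CPM, day 6 over day 5 (x axis), of each tested gene in 39 lists (rows, number of tested genes in brackets), ordered by the list's median (black bar), with the median of all tested genes dashed and 2-fold dotted; red is higher, blue lower and grey between. The sarcomere median of 5.68 stands at the top and the pluripotency median of -1.58 at the bottom.

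Endothelial genes were higher in sum. Of 28 listed, 22 were tested, 17 were higher (77.3%, against 12.3% of all tested genes) and 1 was lower. Genes that reach the floor through day 6 alone, as *Cdh5*, *Tie1*, *Icam2*, *Cd34*, *Emcn* and *Sox7* did, had to be higher. The share was therefore partly set by the floor. The whole list summed to 312 and 786 CPM (ratio 2.52, 2.501 to 2.546). *Cdh5*, the cadherin of endothelial junctions, stood at 3.90 and 39.2 CPM, *Tie1*, a receptor gene, at 1.33 and 14.6 CPM, *Icam2* at 1.74 and 24.5 CPM, and *Cd34* at 0.737 and 12.01 CPM. *Emcn*, the endomucin gene, had 7 UMIs at day 5 and 4691 at day 6 (0.0297 and 25.9 CPM), and *Sox7* stood at 3.34 and 8.399 CPM. The lower member was *Etv2*, the transient factor that starts the endothelial lineage, at 18.5 and 8.71 CPM. The signal sat in a minority of cells on both days, since the median cell had 0.0141% of its UMIs in the list at day 5 and 0.0140% at day 6, against 0.343% and 0.818% at the 99th percentile.

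Blood genes were sparse. Of 26 listed, 6 were tested, 1 was higher and 1 lower. *Hba-x*, the embryonic alpha-like globin gene, had 3 UMIs at day 5 and 4206 at day 6, a ratio of 1829 (626 to 8874). Near-identical globin copies can share reads. The embryonic beta-like globin genes stood at 0.00424 CPM at day 5 for both *Hbb-y* and *Hbb-bh1* and at 2.29 and 3.59 CPM at day 6. *Car2*, at 22.6 and 11.2 CPM, was lower, and *Runx1*, at 6.48 and 1.95 CPM, did not reach the floor.

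Several epithelial genes of the endoderm list were lower at day 6, while most of its tested members did not reach 2-fold. Of 29 listed endoderm genes 16 were tested, 6 were lower (37.5%, against 4.48% of all tested genes) and 1 was higher, and the list summed to 1766 CPM at day 5 and 761 CPM at day 6, with 852 CPM at day 4. Most of the lower members are genes that epithelia in general express. *Krt8* and *Krt18*, which encode the keratin pair of simple epithelia, stood at 484 and 77.0 CPM and at 351 and 59.3 CPM, and *Epcam*, an adhesion gene, at 94.3 and 30.1 CPM, with *Cdh1* and *Cldn7* also lower. *Spink1*, a trypsin inhibitor gene of gut and pancreas, stood at 118 and 26.5 CPM. Factors of the endoderm differed less, with *Foxa2* at 6.96 and 5.08 CPM and *Sox17*, which endothelium also expresses, at 16.3 and 21.9 CPM, and *Rbp4* was higher at 13.2 and 27.3 CPM. *Krt8* was not limited to few cells at day 5, where the richest 10% of thinned cells held 38.2% of its UMIs. The share of a cell's UMIs in the list had a median of 0.108% at day 5 and 0.0310% at day 6. The median log2 ratio of the list was -0.77, or -1.57 without the 8% of cells with most UMIs on each day.

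Pluripotency genes had the lowest list median, at -1.58 on the log2 scale. Of 25 listed, 15 were tested, 9 were lower and 1 higher, and the list summed to 603 and 204 CPM. *Dppa5a* made up more than any other member of the day 5 sum, with 318 CPM against 37.96 CPM at day 6. *Zfp42* stood at 18.95 and 2.503 CPM, *Pou5f1* (Oct4) at 26.5 and 6.14 CPM, and *Utf1* at 21.2 and 3.96 CPM. *Nanog* was below the floor, at 5.46 and 0.807 CPM. The one higher member, *Sox2*, at 14.3 and 33.8 CPM, is also a gene of the neural plate. The day 5 signal came from few cells: at 5000 UMIs, the 1% of cells richest in *Dppa5a* held 39.4% of its UMIs. The 99th percentile of the list share was 1.14% of a cell's UMIs at day 5 and 0.0914% at day 6. With a floor of 20 CPM, which few members reached, the list median was 0.24. In the germ cell list, which shares *Pou5f1*, *Dppa3*, *Prdm14* and *Sox2* with it, 5 of 12 were tested, of which 2 were lower and 1 was higher. *Ddx4* and *Dazl*, germ cell genes that the list does not share, stood at 4.38 and 0.304 CPM and at 1.90 and 0.0884 CPM.

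Most tested neural genes were higher from a low base, while most neural crest genes did not reach the floor. Of 26 neural genes 11 were tested, 8 were higher and 1 lower, and the list summed to 165 and 567 CPM, with 357 CPM at day 4. *Fabp7*, of radial glia, stood at 0.610 and 29.7 CPM, *Hes5*, a NOTCH target of neural progenitors, at 0.343 and 14.1 CPM, *Crabp2* at 19.7 and 168 CPM and *Ncam1* at 14.7 and 90.2 CPM. *Stmn2*, a gene of neurons, was lower, at 11.7 and 3.73 CPM. Of 16 neural crest genes 5 were tested and 3 were higher (60%), namely *Pax3*, *Ets1* at 9.72 and 44.2 CPM and *Sox9* at 15.3 and 37.6 CPM, which other tissues also express. *Sox10* and *Foxd3* stood below the floor, at 0.191 and 0.807 CPM and at 0.161 and 0.873 CPM.

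Mesenchyme genes moved apart from each other. Of 30 listed 24 were tested, 11 were higher and 4 lower, and the sum was 2659 and 3287 CPM. *Col3a1*, a fibrillar collagen gene, stood at 0.347 and 60.5 CPM (ratio 174, 140 to 219), *Cxcl12*, a chemokine gene, at 1.93 and 42.2 CPM, and *Pdgfra* and *Meox1* as above. The lower genes were *Hand1*, *Pmp22* at 130 and 59.0 CPM, and the homeobox genes *Msx1* and *Msx2*, targets of BMP signalling, at 134 and 38.4 CPM and at 62.0 and 7.23 CPM. Of 16 epicardial genes 5 were tested, 3 were higher and 1 lower: *Wt1* stood at 0.504 and 23.3 CPM, *Aldh1a2* at 1.28 and 10.2 CPM and *Lrrn4* at 22.3 and 2.60 CPM, and the list median was -0.90 with a floor of 20 CPM. Of 14 genes of intermediate mesoderm and kidney 7 were tested, 3 were higher (42.9%, *Wt1*, *Osr1* and *Sall1*) and 1 lower (14.3%, *Lhx1*).

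Of 13 smooth muscle genes 10 were tested, 7 were higher and 0 lower, and the list summed to 400 and 1010 CPM. *Acta2* made up most of this difference. The heart muscle also uses several of these genes: without the sarcomere-rich cells the list summed to 507 CPM at day 6, against 400 CPM at day 5. The median log2 ratio went from 1.63 to -0.20, but the floor was applied anew, so these medians cover different genes. *Synpo2*, at 0.415 and 7.42 CPM there, *Myocd* and *Cnn1* fell below the floor although their values were higher at day 6. *Myh11*, the defining myosin of mature smooth muscle, stood at 0.161 and 0.116 CPM. Of 50 genes of the extracellular matrix 35 were tested, 18 were higher and 1 was lower, and the sum was 1010 and 1804 CPM. *Hapln1* and *Vcan*, which encode the link protein and the large proteoglycan of cardiac jelly, stood at 3.01 and 58.8 CPM and at 34.4 and 183 CPM, and *Col1a2* at 0.720 and 16.3 CPM. *Lama5*, of the basement membrane of epithelia, was lower, at 15.8 and 3.92 CPM. Fibronectin (*Fn1*), at 170 and 201 CPM, was within 2-fold.

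The lowest ratio among genes with a mean of at least 20 CPM was that of *Mt2*, at 356 CPM at day 5 (354 to 359) and 7.33 CPM at day 6 (6.94 to 7.74), 48.6-fold lower. *Mt1*, its neighbour, stood at 736 and 78.4 CPM, 9.38-fold lower. Both encode metallothioneins, small proteins that bind zinc and copper, and both had been low at day 4, at 48.6 and 134 CPM. At day 5 the richest 10% of thinned cells held 45.2% of the *Mt2* UMIs and 50.04% of the *Mt1* UMIs. Both promoters are shown because they carry the metal response element, the sequence TGCACNC or TGCGCNC, by which metallothionein genes are known to respond to zinc. The 150 bases before the start are given for the plus strand (GRCm38.p6, chr8:94178939-94179088 for *Mt1* and chr8:94172468-94172617 for *Mt2*), with the element in capitals on either strand.
Mt1: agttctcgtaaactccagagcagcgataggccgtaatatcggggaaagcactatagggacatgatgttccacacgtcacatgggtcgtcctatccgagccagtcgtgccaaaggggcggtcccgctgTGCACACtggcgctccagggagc
Mt2: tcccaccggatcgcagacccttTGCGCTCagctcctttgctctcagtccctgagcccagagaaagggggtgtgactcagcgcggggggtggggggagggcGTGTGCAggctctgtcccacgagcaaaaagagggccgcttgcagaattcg

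The element was added to the search after *Mt1* and *Mt2* had been seen, and at 7 letters it is common, occurring within 250 bases before the start of 21.3% of all promoters and 31.5% of tested genes. The other genes with the lowest ratios included germ cell and epithelial genes that were also low at day 4. *Sycp3*, of the synaptonemal complex of meiosis, stood at 21.5 CPM at day 4, 101 CPM at day 5 and 2.56 CPM at day 6, and *Rbmxl2*, an RNA-binding protein gene of the testis, at 12.6, 63.7 and 3.04 CPM. *Ass1*, of arginine synthesis, stood at 11.3, 72.7 and 5.37 CPM, *S100a6*, a calcium-binding protein gene, at 2.13, 56.7 and 4.97 CPM, *Perp*, a desmosome gene induced by p53, at 4.62, 40.2 and 3.37 CPM, and *Shisa4* at 7.21, 141 and 18.8 CPM. Of the 15 genes with the lowest ratios, *Msx2* was the only one with a higher level at day 4 than at day 5.

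Many inhibitors of the cell cycle and targets of p53 were lower in the same step. Of 20 listed 17 were tested, and 9 were lower (52.9%, against 4.48% of all tested genes). The 2 higher genes made up 11.8%, near the 12.3% of all tested genes. *Cdkn1a* (p21), the main inhibitor induced by p53, stood at 61.7 CPM at day 4, 285 CPM at day 5 and 60.1 CPM at day 6. The other lower members were *Ccng1*, at 201 and 61.6 CPM, *Phlda3*, at 130 and 44.0 CPM, *Gadd45g*, *Gadd45b*, *Cdkn2a*, *Btg2*, *Mdm2* and *Aen*. *Cdkn1c* (p57), an imprinted inhibitor of the cell cycle, went the other way, from 164 to 1133 CPM (ratio 6.93, 6.851 to 7.002), and *Btg1* stood at 31.1 and 88.2 CPM. *Cdkn1c* alone was 969 CPM higher, and the list sum was 1693 CPM at day 5 and 1929 CPM at day 6, while the median log2 ratio was -1.05.

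Genes of proliferation differed little in sum and more in spread. Of 41 S phase genes 40 were tested, 0 were higher and 2 lower, among them *Dscc1*, of sister chromatid cohesion, at 45.1 and 18.8 CPM, and of 52 genes of G2 and M phase, all tested, 0 passed 2-fold in either direction. The sums were 3679 and 3244 CPM for S phase and 7851 and 7494 CPM for G2 and M phase. Over cells thinned to 5000 UMIs, the share of the G2 and M list had a median of 0.66% of a cell's UMIs at day 5 and 0.38% at day 6, while its 99th percentile was 1.86% and 2.70%. Without thinning the 99th percentiles were 1.79% and 2.65%. Of 68 replication-dependent histone genes 19 were tested, 6 were lower and 0 higher, and the sum was 757 and 878 CPM. These genes are near-identical copies that lack long poly(A) tails, and their counts are uncertain.

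**Figure D4:**
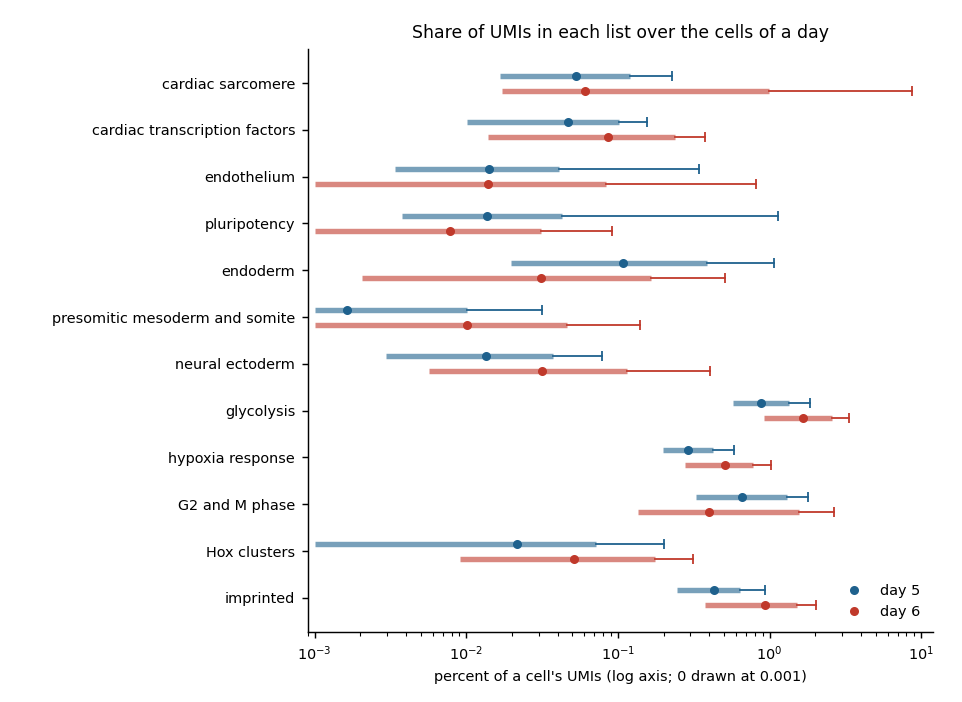
Share of a cell's UMIs in 12 gene lists (x axis, percent, log scale) over the kept cells of day 5 (blue) and day 6 (red), with the median (point), the 10th to 90th percentile (thick bar) and the 99th percentile (tick). For the sarcomere list the medians of 0.0529% and 0.0610% lie close together and the 99th percentiles of 0.227% and 8.65% far apart, whereas for glycolysis the whole range is displaced, with medians of 0.882% and 1.67%.

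Glycolysis genes were higher across most cells. All 21 listed genes were tested, 12 were higher (57.1%) and 0 lower, and the list summed to 9235 CPM at day 5 and 16672 CPM at day 6, or 1.81-fold (1.80 to 1.81), after 12615 CPM at day 4. *Gapdh* was the gene with the largest gain in CPM of all genes, from 2992 to 4638 CPM. *Pfkl* and *Hk2*, which encode enzymes of early, regulated steps, stood at 70.2 and 235 CPM and at 21.8 and 60.4 CPM, *Pkm*, of the last step, at 670 and 1468 CPM, *Eno1* at 340 and 811 CPM, and *Ldha*, which makes lactate, at 1323 and 2328 CPM. The glucose transporter gene *Slc2a3* was at 136 and 75.8 CPM, the only member with a lower value at day 6. The median log2 ratio of 1.11 became 0.98 under DESeq2 size factors. The 10th percentile of cells at day 6 was 0.926% of UMIs in the list, above the day 5 median of 0.882%.

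Of 24 genes of the hypoxia response 23 were found in the files and 20 were tested, 9 were higher and 1 lower. *Adm*, the adrenomedullin gene, stood at 0.610 and 13.6 CPM, *Ankrd37* at 10.2 and 60.7 CPM, *Bnip3*, of mitochondrial clearance, at 48.3 and 214 CPM (ratio 4.44, 4.35 to 4.53), *Egln1* and *Egln3*, which encode oxygen sensors, at 52.3 and 173 CPM and at 7.04 and 22.3 CPM, and *Vegfa* at 19.7 and 48.3 CPM. *Car4*, a carbonic anhydrase gene, was lower at 35.8 and 12.3 CPM. The core of the hypoxia response element, ACGTG on either strand, which the E-box CACGTG also holds, occurred in 10 of 18 promoters of the list (55.6%) and 7 of 20 glycolysis promoters (35%), against 23.4% of tested genes and 16.6% of all promoters. The metal response element was also more frequent there than in tested genes (31.5%), in 9 of 18 hypoxia promoters (50%) and 9 of 20 glycolysis promoters (45%). *Pdk1* and *Slc2a1* stand in both lists.

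Few genes of cholesterol synthesis passed 2-fold, a share of 13.6% near that of all tested genes. All 22 were tested, 3 were higher (*Nsdhl*, at 21.4 and 76.1 CPM, *Acat2* and *Msmo1*) and 0 lower, 20 of 22 had a higher value at day 6, as 6066 of all 9703 tested genes did, and the median log2 ratio was 0.59. Of 21 genes of the amino acid response 18 were tested, 3 were higher (*Cth*, *Vldlr* and *Gpt2*) and 0 lower, with a median of 0.41. This share of 16.7% higher was near the 12.3% of all tested genes. Of 22 genes of dissociation stress and immediate early response 16 were tested, 3 were higher (*Ier3*, *Jund* and *Zfp36*) and 1 lower (*Ccn1*), and the sum was 4239 and 3435 CPM. These were 18.8% higher and 6.25% lower, against 12.3% and 4.48% of all tested genes. The median of this list was 0.11 and turned to -0.05 under TMM and -0.07 under DESeq2 size factors.

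The largest losses in CPM were those of abundant housekeeping genes. *Rps20*, which encodes a protein of the small ribosomal subunit, stood at 10712 and 7218 CPM and *Rpl41*, of the large subunit, at 6824 and 4080 CPM. Of 86 cytoplasmic ribosomal protein genes 83 were tested, 69 had a lower value at day 6 and 0 were past 2-fold lower. Processed copies of these genes can share reads. *Fth1*, which encodes the heavy chain of the iron store ferritin, stood at 2216 CPM at day 4, 4069 CPM at day 5 and 1531 CPM at day 6, and *Ftl1-ps1*, counted under the name of a pseudogene of the light chain, at 2040, 5815 and 3758 CPM. The histone variant genes *H3f3b* and *H2afz* stood at 4239 and 2280 CPM and at 1507 and 2702 CPM. *Mdk*, which encodes the growth factor midkine, at 1589 and 2956 CPM, and *Tubb5*, a tubulin gene, at 1328 and 2398 CPM, were among the 10 largest gains.

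Mitochondrial genes differed little. Of 13 mitochondrially encoded genes 1 was higher (*mt-Nd6*, at 16.3 and 50.9 CPM, read from the opposite strand to most others), 0 were lower, and the sum was 27651 and 30505 CPM. Of 96 nuclear genes of oxidative phosphorylation, assembly factors included, 93 were tested, 4 were higher and 1 lower, with a median log2 ratio of -0.06. The higher genes were *Cox4i2* at 6.72 and 58.1 CPM, *Cox6a2*, the heart and muscle form, at 4.68 and 19.2 CPM, *Cox7a1* at 6.34 and 13.3 CPM and *Ndufa4l2* at 16.4 and 36.9 CPM. Without the sarcomere-rich cells *Cox6a2* stood at 1.61 CPM and *Cox7a1* at 3.99 CPM at day 6, below their day 5 levels. The lower gene was *Cox6b2*, the testis form, at 91.6 and 28.02 CPM.

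Imprinted genes, which are expressed from the copy of a single parent, were higher in sum. Of 28 listed 23 were tested, 10 were higher and 1 lower, 22 of 23 had a higher value at day 6, and the list summed to 4274 and 8677 CPM, a ratio of 2.03 (2.03 to 2.04). Apart from *Cdkn1c* the furthest were *Nnat* at 1.06 and 26.4 CPM, *Zim1* at 4.86 and 27.3 CPM and *Asb4* at 30.5 and 150 CPM. *Gnas*, which encodes the stimulatory G protein subunit, stood at 1075 and 2193 CPM and *Igf2*, the fetal growth factor gene, at 223 and 519 CPM. *Phlda2*, a brake on placental growth, was lower, at 222 and 42.6 CPM, after 477 CPM at day 4. The median cell had 0.429% of its UMIs in the list at day 5 and 0.927% at day 6.

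Signalling genes gave no uniform direction. Of 25 genes of the FGF pathway 18 were tested, 2 were higher (*Fgf17* and *Etv1*) and 2 lower, namely the ligand genes *Fgf3*, at 32.7 and 1.35 CPM, and *Fgf15*, at 23.0 and 3.60 CPM, and the sum was 368 and 367 CPM. Each count was 11.1% of the tested FGF genes, against 12.3% higher and 4.48% lower among all tested genes. Of 32 WNT genes 18 were tested, 6 were higher (33.3%) and 3 lower (16.7%). The higher genes were the ligand genes *Wnt2*, at 10.1 and 47.7 CPM, and *Wnt5a*, and the secreted inhibitors *Sfrp1*, at 4.89 and 149 CPM, *Sfrp2*, *Frzb* and *Sfrp5*, at 0.0974 and 46.7 CPM (ratio 480, 320 to 757). The lower genes were the ligand gene *Wnt3* and the pathway targets *Lef1*, at 63.8 and 24.1 CPM, and *Axin2*, at 17.2 and 6.71 CPM.

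Of 33 genes of BMP, TGF-beta and Nodal signalling 17 were tested, 4 were higher and 4 lower (23.5% each). *Nodal*, *Bmp7*, at 41.5 and 14.0 CPM, *Msx1* and *Msx2* were lower, and *Tgfb2*, at 51.5 and 167 CPM, *Bmp2*, *Fst* and *Id4* were higher. Of 18 NOTCH genes 11 were tested, 5 were higher (45.5%) and 1 lower (9.09%), with the ligand gene *Jag1* at 3.81 and 19.6 CPM, the target *Hey1* at 4.08 and 34.9 CPM and the ligand gene *Jag2* at 8.58 and 2.80 CPM. Of 25 genes of retinoic acid and Hedgehog signalling 13 were tested, 7 were higher (53.8%) and 1 lower (7.69%), and the sum was 266 and 709 CPM, after 695 CPM at day 4. The retinoic acid synthesis genes *Rdh10* and *Aldh1a2* stood at 6.58 and 28.3 CPM and at 1.28 and 10.2 CPM, the degrading enzyme gene *Cyp26a1* at 17.98 and 6.44 CPM, and the Hedgehog receptor and target *Ptch1* at 13.7 and 43.2 CPM.

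Hox genes, which set position along the body axis and are numbered from the head end, were higher in most cases. Of 39 listed 25 were tested, 18 were higher (72%), 0 were past 2-fold lower and 23 had a higher value at day 6, and the list summed to 308 and 806 CPM. The genes of paralogue groups 1 to 3 had a median log2 ratio of 1.06 (7 genes), those of groups 4 to 8 of 1.39 (12 genes) and those from group 9 on of 2.65 (6 genes). Genes that reach the floor through day 6 alone, as *Hoxd3*, *Hoxa10* and *Hoxc10* did, had to be higher. These medians were therefore partly set by the floor, and a trend with group number cannot be read from them. *Hoxb1*, of group 1, was at 18.2 and 11.96 CPM. *Hoxc10* was furthest apart, at 0.961 and 44.1 CPM (ratio 45.8, 40.2 to 52.5), followed by *Hoxa10*, at 1.24 and 13.5 CPM. Within group 9 the ratios ran from 1.93 for *Hoxd9* to 7.28 for *Hoxb9*. The genes from group 11 on stayed below the floor. The clusters overlap and neighbouring genes share transcripts, so these are not independent values.

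**Figure D5:**
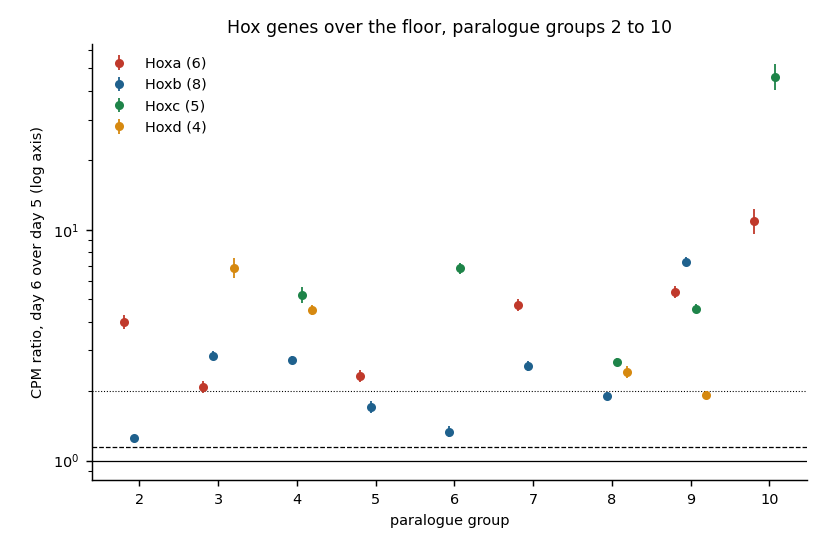
CPM ratio of day 6 over day 5 (y axis, log scale) of the tested Hox genes of paralogue groups 2 to 10, by group (x axis) and cluster (colour), with exact 95% counting intervals; lines mark equal values (solid), the median of tested genes (dashed) and 2-fold (dotted). Group 1, which holds *Hoxb1* with its lower value at day 6, is not plotted, and *Hoxc10* lies furthest up at 45.8.

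Over the larger families of developmental transcription factors, 135 of 290 genes were tested, 71 were higher (52.6%) and 12 lower, with a median log2 ratio of 1.09, or 0.97 under DESeq2 size factors. Some of these families hold genes already given above. Among the others, the orphan nuclear receptors *Nr2f1* and *Nr2f2*, which act in atria, veins and neural tissue, stood at 2.45 and 111 CPM and at 16.2 and 136 CPM, *Zfpm2*, a partner of GATA factors, at 1.23 and 11.4 CPM, and the homeobox genes *Meis1* and *Meis2* at 21.8 and 72.9 CPM and at 83.8 and 234 CPM; these were chosen after their values had been seen. The lower genes were *Mesp1*, *Msx1*, *Msx2*, *Tbx3*, *Hand1*, *Etv2*, *Lhx1*, *Pou5f1*, *Klf5*, *Klf9*, *Klf10* and *Mef2b*.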

How the data were processed

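Per the labels, the samples are single-cell RNA libraries of Zx1 gastruloids, 1 a day. The authors deposited UMI counts per gene and called cell, not normalized, made with Cell Ranger 3.1.0 on mm10 per the submitters' processing notes; the day 11 matrix header names version 6.0.1, so its levels are set beside the others as context only. Here, counts were summed over cells with 2000 or more UMIs and under 20% mt- UMIs, 7408 at day 5 and 5850 at day 6, and scaled to CPM of the library's sum. No doublet caller was run. Genes with a mean of 5 CPM or more were tested against a ratio of 2. CPM has an exact Poisson interval and a ratio an exact conditional binomial (Clopper-Pearson) interval at 95%. A library at 0 would be given a floor of 3 counts. The steps were tested on simulated data. Promoters were matched by symbol or synonym to RefSeq (GRCm38.p6), for 7813 of 9703 tested genes, 80.5%. Python 3.11.15, scipy 1.17.1, edgeR 4.0.16 (TMM) and DESeq2 1.42.0 (size factors) were used, the latter for scaling only.

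The comparison, the 39 gene lists and the naming rule were chosen with earlier results of these data known. Named genes are the 15 highest and 15 lowest ratios at a mean of 20 CPM or more, the 10 largest gains and losses in CPM, up to 4 genes furthest up and 4 furthest down past 2-fold in each list, members needed to read a list, and 12 genes that the study names. List members outside the furthest 4, and genes at the edge of the fold limit, were picked after their values were seen. Alternatives changed the cell filter, scaling, floor, fold, pseudocount and depth. Some genes are not reported here.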

Additional observations from a re-analysis of the deposited data

How the results depend on the processing

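No paired analysis was possible because each day has 1 library. Both counts stayed within 1.5 times under the other cell filters, the mean of each cell's CPM, thinning to 5000 UMIs, TMM, DESeq2 size factors and removal of the 585 sarcomere-rich cells or of barcodes found in both libraries (the last added once the data had been looked at), from 974 to 1208 higher and from 434 to 569 lower genes. With the total taken without mitochondrial and ribosomal protein genes, 669 genes were lower. The unchanged floor was then reached by 10576 genes in place of 9703, so this count covers a larger set of genes. A floor of 1 CPM gave 2047 higher and 986 lower genes, a floor of 20 CPM 483 and 164, 10 CPM added to both days 484 and 152, a fold of 1.5 2477 and 1036, and a fold of 3 538 and 186, by construction of the limits. The median log2 ratio was 0.08 under TMM, 0.06 under DESeq2 size factors and 0.07 with the reduced total. Each list median under an alternative covers the genes that reach the floor there. Without the sarcomere-rich cells the smooth muscle list median came to -0.20 over such genes, and the log2 ratio to -1.54 for *Cox6a2* and -0.67 for *Cox7a1*. In these cells 20 of 171 named genes past 2-fold no longer passed both the floor and the fold, the reason being fewer cells of that kind by construction. A floor of 20 CPM left few members and turned the list medians of pluripotency (0.24) and epicardial genes (-0.90), and, for medians within 0.20 of 0, streak (1.12), germ cell (0.56) and FGF genes (-0.06). A floor of 1 CPM turned streak (0.35), haematopoietic (0.24) and immediate early genes (-0.47). The medians of the immediate early and mitochondrially encoded lists turned under TMM (-0.05 and -0.02), DESeq2 size factors (-0.07 and -0.03) and the reduced total (-0.10 and -0.03), the last also for streak genes (0.05). As a mean over cells the immediate early median was -0.04 and the FGF median -0.08, and after thinning the former was -0.04. The median of the endoderm list, -0.77, was -1.57 without the 8% of cells with most UMIs, a crude filter on doublets, -1.27 as a mean over cells and -1.23 after thinning; the cause was not tested. Depth limits genes below 1 CPM at day 5, whose ratios have wide intervals.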

Other observations

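Barcodes left out by the cell rule numbered 386 at day 5 and 778 at day 6. At day 6, 621 of them held fewer than 2000 UMIs and 157 failed on the mitochondrial share alone, against 302 and 84 at day 5. Their median mitochondrial share was 10.07% at day 5 and 31.15% at day 6, and their median depth was 1103 and 1061 UMIs. Keeping them moved the counts past 2-fold to 1188 higher and 439 lower genes. The GFP feature in the gene lists had 0 UMIs on every day.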
